A study of Mus musculus with 8 samples.

Results

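T cells with a long beta chain CDR3 were described among brain immune cells of 5xFAD mice with and without Cxcr6. A cell was a member when its barcode carried exactly 1 productive TRB contig whose CDR3 had 17 or more residues, and 149 of 6223 barcodes with exactly 1 TRB met this, of 6686 barcodes with any productive chain. The 149 cells formed 121 of the 4138 clones with 1 TRB (2.92%), a clone being a clonotype of the deposited tables within its library. They were set against 5721 cells (3796 clones) with a CDR3 of 12 to 16 residues, called reference clones. The other 221 clones had under 12 residues. The length alone chose the members, and no gene expression was used.

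The series profiled sorted CD45+ cells of the brain parenchyma of C57BL/6 mice. All animals carried the 5xFAD transgenes, human amyloid precursor protein and presenilin with familial Alzheimer's disease mutations, which make the brain deposit amyloid. The control group, 5xFAD, carried no Cxcr6 deletion and the other, 5xFAD;Cxcr6-/-, lacked this chemokine receptor, so no group was without the transgenes. The receptor tables hold no Cxcr6 reading that could check these labels. Each genotype had 2 T cell receptor libraries, numbered 1 and 2; the labels give no age and do not say whether a library was 1 mouse or a pool, so the p-values capture library-to-library spread, which may be technical.

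The T cell receptor of these cells pairs an alpha chain (TRA) with a beta chain (TRB). The CDR3 is the loop of each chain that spans the junction of the joined gene segments and commonly lies over the peptide. The TRB CDR3 starts in a V segment, ends in a J segment and holds what is left of a short D segment between them; nucleases trim the segment ends and terminal transferase adds bases without a template, called N bases. A long loop can therefore come from less trimming, from longer segments or from more added bases. TRBD1 lies before the TRBJ1 cluster and TRBD2 before the TRBJ2 cluster, so TRBD2 normally joins TRBJ2 alone. The D segments are rich in G and encode glycine in each of their reading frames.

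The germline pieces and the CDR3s that follow show what a long loop was made of. The pair of D segments are those of GENCODE vM21 on GRCm38, and the J segments are shown from the first base of the segment to the last base of the CDR3.
TRBD1: gggacagggggc
TRBD2: gggactgggggggc
TRBJ2-2: caaacaccgggcagctctacttt
TRBJ2-7: ctcctatgaacagtacttc
TRBJ1-1: caaacacagaagtcttcttt
TRBD1 (12 bases) lies at chr6:41533201-41533212 and TRBD2 (14 bases) at chr6:41542163-41542176, both on the plus strand and annotated as TR_D_gene. TRBJ1-1 lies at chr6:41533864-41533911, TRBJ2-2 at chr6:41542957-41543007 and TRBJ2-7 at chr6:41543810-41543856, all on the plus strand and annotated as TR_J_gene. TRBJ2-2 gives up to 23 bases to the CDR3, TRBJ1-1 20 and TRBJ2-7 19.

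The CDR3s of 4 of the largest long clones, 1 from each library, and 3 of the 6 CDR3s of 19 residues, the longest length, were chosen to show how such loops are built. Capitals mark the bases that matched neither the V segment nor the J segment, so they hold the D remnant and the N bases.
5xFAD library 1, largest: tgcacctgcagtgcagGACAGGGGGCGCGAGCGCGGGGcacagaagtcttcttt
5xFAD library 2, among the largest: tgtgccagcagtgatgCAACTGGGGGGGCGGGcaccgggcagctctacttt
5xFAD;Cxcr6-/- library 1, among the largest: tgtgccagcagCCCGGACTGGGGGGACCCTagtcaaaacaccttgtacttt
5xFAD;Cxcr6-/- library 2, largest: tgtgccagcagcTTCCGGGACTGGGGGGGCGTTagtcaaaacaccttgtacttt
5xFAD library 1, longest A: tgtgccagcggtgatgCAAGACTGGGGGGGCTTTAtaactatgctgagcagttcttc
5xFAD library 1, longest B: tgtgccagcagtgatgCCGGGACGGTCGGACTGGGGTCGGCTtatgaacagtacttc
5xFAD;Cxcr6-/- library 2, longest: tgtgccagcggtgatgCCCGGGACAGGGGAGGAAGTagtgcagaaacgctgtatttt
The largest clone of all had 10 cells and an 18-residue CDR3 from TRBV1 and TRBJ1-1 with a stretch of 10 bases that matched TRBD1 and 12 bases outside V, D and J. The 4-cell clone of 5xFAD;Cxcr6-/- library 2 joined TRBV5 to TRBJ2-4 and held all 14 bases of TRBD2. The CDR3 named longest B reached 19 residues with 9 bases of TRBD2 and 17 bases outside V, D and J. Longest A, of the same length, held 12 bases of TRBD2 and 7 outside the segments.

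Long loops were rare in all libraries and sat at the edge of a length distribution centred on 14 residues. Long clones numbered 36 of 1198 in 5xFAD library 1 (3.01%, 95% Clopper-Pearson interval 2.11 to 4.14) and 37 of 1420 in library 2 (2.61%, 1.84 to 3.57). Library 1 of 5xFAD;Cxcr6-/- had 14 of 538 (2.60%, 1.43 to 4.33) and library 2 had 34 of 982 (3.46%, 2.41 to 4.80). The genotypes overlapped, with means of 2.81% ± 0.282 and 3.03% ± 0.608 (SD, n = 2 each; exact two-sided permutation p = 1). No p below 0.333 is possible with 2 libraries against 2, and intervals cover counting error only. By cells the shares were 2.37% and 1.87% in 5xFAD and 2.49% and 3.36% in 5xFAD;Cxcr6-/-. Of the 121 clones, 101 had 17 residues, 14 had 18 and 6 had 19.

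**Figure D1:**
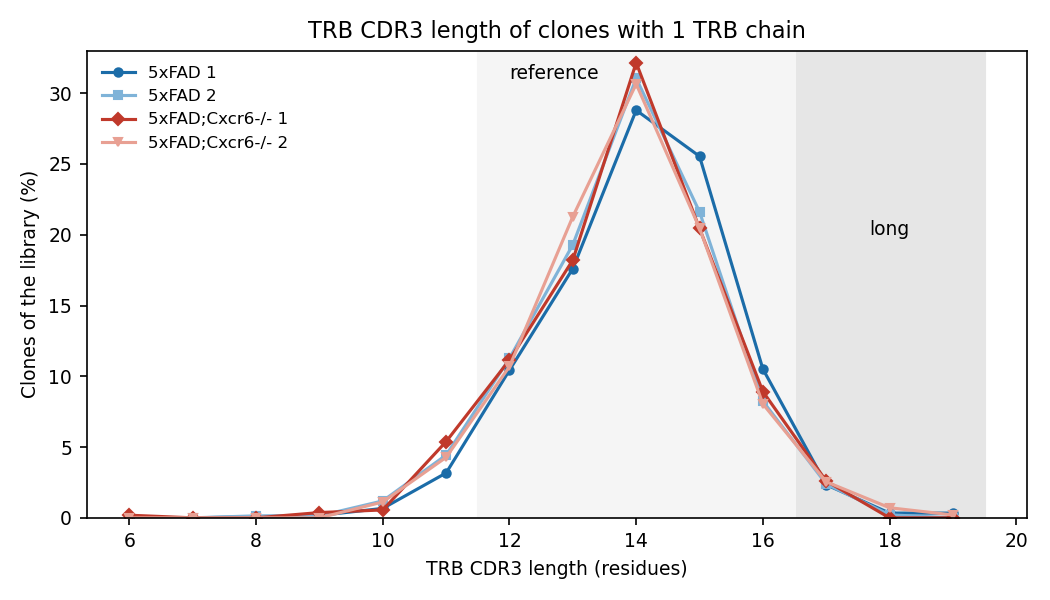
Share of each library's clones (y axis, %) at each TRB CDR3 length (x axis, residues) for the 4 libraries, with the reference lengths in light grey and the long lengths in darker grey. All libraries peak at 14 residues, and between 2.60% and 3.46% of clones lie at 17 or more.

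The libraries held 13460 to 34772 UMIs on 765 to 2522 barcodes. The TRB contigs of long cells had a median of 7 to 12 UMIs by library, against 8 to 10 in reference cells, and 13 of the 149 long cells had under 3. Between libraries, 28 barcode pairs were shared and none had a CDR3 nucleotide sequence in common; 3 long cells had such a barcode. Another 286 barcodes carried 2 TRB chains and stand outside the rule. Every contig was TRA or TRB, and since the libraries were made for the T cell receptor, the tables do not check for other cell types.

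The largest piece of the extra length matched the D segment. Against exact matches to the germline, the CDR3 of a long clone held a D stretch of 9.71 ± 0.165 bases, and that of a reference clone 5.74 ± 0.106 (SD over 4 libraries). This difference of 3.97 ± 0.261 bases was 41.5% of the 9.57 extra bases. Bases outside V, D and J added 2.43 ± 0.453, the J part 2.01 ± 0.302 and the V part 1.16 ± 0.425 (SD of the within-library differences, n = 4). The parts add up to the length that chose the clones, so they carry no test. Shorter D remnants were counted as outside V, D and J. A D match was found in 98.3% of long and 75.6% of reference clones, and clones without a match entered the D mean with no D bases. With D matches of 3 or more bases, the bases outside V, D and J differed by 3.05. Of 120 long clones that could be split (1 with TRBV10 could not, since its label and the annotated gene of that name differ in sequence), 70 kept 10 or more D bases (58.3%), against 597 of 3663 reference clones (16.3%).

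**Figure D2:**
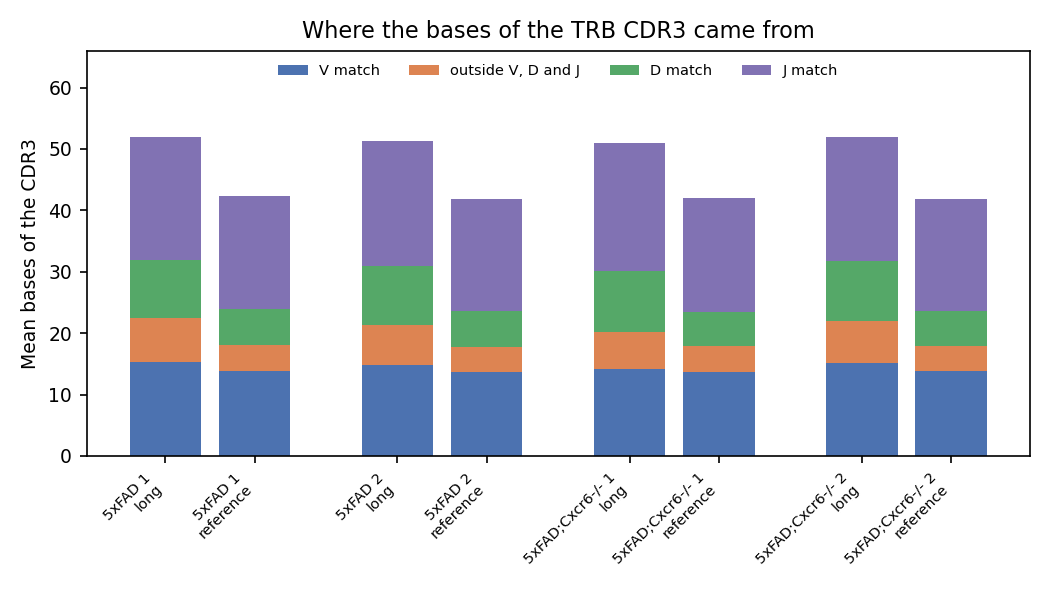
Mean number of CDR3 bases (y axis) that matched V, J or D or lay outside all of them, for long and reference clones of each library. In the 4 libraries the D part was 9.56 to 9.93 bases in long clones and 5.64 to 5.86 in reference clones.

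The values changed gradually with length across the limit of 17 residues. At 16 residues the D stretch averaged 8.56 bases and at 17 residues 9.61. Bases outside the segments went from 5.16 to 6.34 between these lengths, glycine from 13.7 to 15.03 per 100 residues and the share of TRBJ2 clones from 75.9% to 82.2%. From 12 to 16 residues the D stretch was 3.005, 4.69, 5.85, 6.74 and 8.56 bases.

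Segment use of long and reference clones was compared with edgeR's quasi-likelihood test on clones per segment, with each library as its own control. Of 155 V, D, J and C segments tested, 7 passed an adjusted p of 0.05 (4.52%), of which 4 were higher in long clones (2.58%) and 3 lower (1.94%); the median log2 fold change over all 155 was -0.32. With TMM scaling, 1 was higher and 4 lower. The spread is estimated over all segments, and clones of 1 library are not replicates of a condition. Since the segments also make up the length that chose the clones, the differences in TRB segments say which segments long loops contained.

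TRBD2 had the smallest p. The deposited tables named TRBD2 in 10 of 36 and 10 of 37 long clones of 5xFAD libraries 1 and 2 (27.8% and 27.03%). For 5xFAD;Cxcr6-/- these were 6 of 14 and 11 of 34 (42.9% and 32.4%). Its share of reference clones was 5.81% to 8.27%, so all 4 long values lay above all 4 reference values. On the log2 scale the fold change reached 2.06 with an SE of 0.34 (edgeR adjusted p = 6.85e-07), higher in 4 of 4 libraries. TRBD1 was named in 29 of 121 long clones (24.0%) and 600 of 3796 reference clones (15.8%) and did not pass.

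A D segment is easier to name when more of it is left, and the label was given to 54.5% of long and 23.3% of reference clones. Among clones with a D stretch of 10 or more bases, the tables named a D in 72.9% of long and 70.7% of reference clones. Counted by sequence match instead, 47.5% of long clones and 10.6% of reference clones held 10 or more bases that best matched TRBD2. Within the clones that kept 10 or more D bases, the best match was TRBD2 in 57 of 70 long (81.4%) and 387 of 597 reference clones (64.8%), a smaller contrast. Where both were given, label and match named the same D in 61 of 65 long clones. Within clones that used a TRBJ2 segment, TRBD2 was named in 37 of 97 long (38.1%) and 277 of 2416 reference clones (11.5%).

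Among J segments, TRBJ2-2 was higher in long clones, and TRBJ2-7, the shortest, and TRBJ1-1 were lower. TRBJ2-2 was carried by 13.9% and 18.9% of 5xFAD long clones and by 21.4% and 11.8% of those of 5xFAD;Cxcr6-/-, against 4.58% to 5.77% of reference clones. This was a log2 fold change of 1.60 with an SE of 0.47 (edgeR adjusted p = 0.0210). It passed in none of the 4 fits that left out 1 library (adjusted p of 0.0723 to 0.304), nor over cells (0.151), with TMM scaling (0.330) or against reference clones of 15 to 16 residues (0.649). TRBJ2-7, the most used J of the reference clones at 19.9%, was carried by 2, 2, 0 and 3 long clones of the 4 libraries, a mean share of 4.95% (log2 fold change -1.79, edgeR SE 0.46, adjusted p = 0.00517). TRBJ1-1 occurred in 1 of 121 long clones, the 10-cell clone shown above, against 429 of 3796 reference clones. The ratio of these shares was 0.0731 (95% exact interval 0.00185 to 0.410) and the fitted log2 fold change -3.73 (edgeR SE 0.92, adjusted p = 0.00466). TRBJ2-7 no longer passed without 5xFAD library 1 (adjusted p = 0.267), 5xFAD;Cxcr6-/- library 1 (0.0532) or 5xFAD;Cxcr6-/- library 2 (0.110), and TRBJ1-1 without the last of these (0.132). Both calls were also lost with DESeq2 (adjusted p = 0.0788 and 0.0670) and against reference clones of 15 to 16 residues (0.610 and 0.460). Over cells, where the 1 clone with TRBJ1-1 counts as 10, its log2 fold change was -1.33 (edgeR adjusted p = 0.624).

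**Figure D3:**
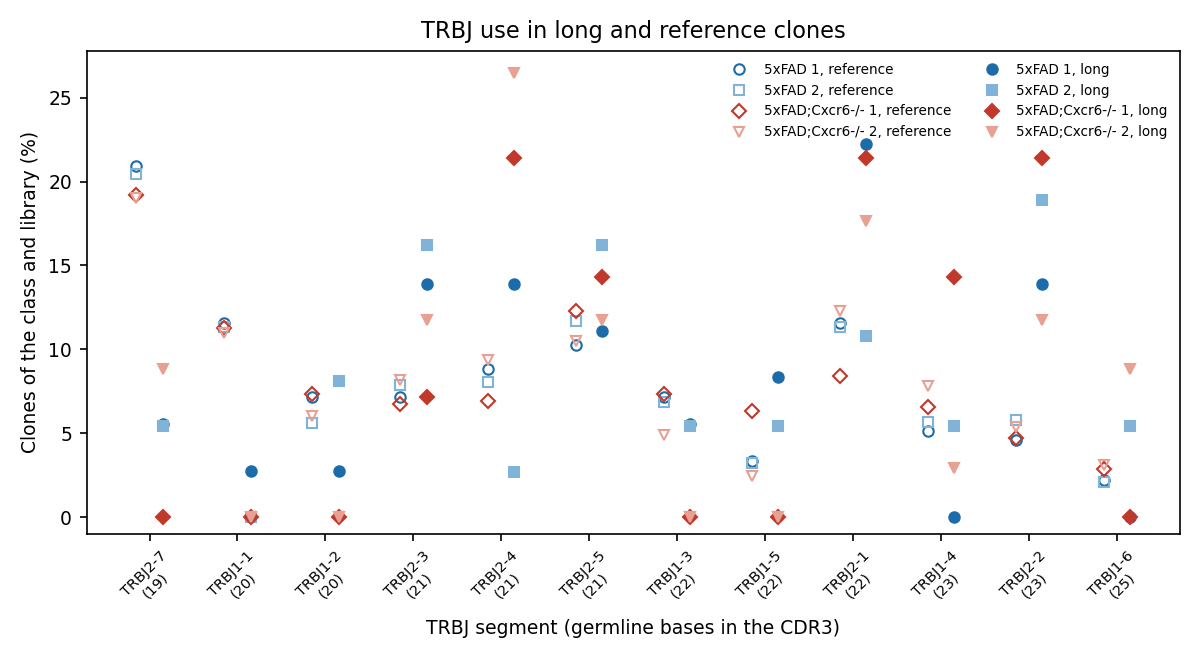
Share of clones (y axis, %) that carried each TRBJ segment, in the order of the bases it can give to the CDR3 (in brackets), with open symbols for reference and filled symbols for long clones of each library. TRBJ2-7 (19 bases) fell from 19.9% to 4.95% and TRBJ2-2 (23 bases) went from 5.11% to 16.5% as means over libraries.

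The order was not one of J length alone. TRBJ1-6, the longest at 25 bases, was used by 5 long clones, a mean share of 3.56% against 2.58% of reference clones. TRBJ2-1, the most frequent J of long clones, had mean shares of 18.03% and 10.9% (log2 fold change 0.62, edgeR SE 0.38, adjusted p = 0.618). TRBJ2-3, TRBJ2-4 and TRBJ2-5 had mean shares of 12.3%, 16.1% and 13.3% of long clones, with log2 fold changes of 0.79, 0.80 and 0.27 that did not pass. As a cluster, TRBJ2 was used by 97 of 121 long clones. The library means were 81.2% of long and 62.9% of reference clones, a difference of 18.3 ± 9.78 percentage points (SD, n = 4), positive in 4 of 4 libraries. The exact two-sided sign-flip permutation p was 0.125, the smallest that 4 libraries can give, and 0.292 after Benjamini-Hochberg adjustment over 7 measures. TRBC1, the constant region joined to TRBJ1, mirrored this and was lower in long clones (24 of 121, log2 fold change -0.84, edgeR SE 0.26, adjusted p = 0.0389); the call was lost without 5xFAD library 1 (0.522), 5xFAD;Cxcr6-/- library 1 (0.418) or 5xFAD;Cxcr6-/- library 2 (0.818), over cells (0.717), with DESeq2 (0.191) and against 15 to 16 residues (0.595).

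No V segment passed the test. The joined label TRBV12-2+TRBV13-2 of the deposited tables, whose CDR3s were read against the germline of TRBV13-2, was the most frequent in long clones at a mean of 15.6%, against 12.6% of reference clones. TRBV1 (chr6:40891229-40891885) followed with 6, 8, 1 and 3 long clones by library. Its shares were 16.7%, 21.6%, 7.14% and 8.82% of long clones and 5.11% to 5.93% of reference clones, so all 4 long values lay above all 4 reference values (log2 fold change 1.41, edgeR SE 0.47, adjusted p = 0.0542). Of the 8 in 5xFAD library 2, 4 were 2 TRB chains of identical nucleotides, each split over 2 clonotypes. The log2 fold change was 0.58 with TMM scaling (edgeR adjusted p = 0.444) and 1.23 against reference clones of 15 to 16 residues (0.407). Over cells it was 1.83 (edgeR adjusted p = 0.0735). TRBV5 had a mean of 10.8% in long and 5.18% in reference clones, TRBV16 8.90% and 5.86%, TRBV2 8.22% and 3.05%, and TRBV13-3 7.45% and 6.70%.

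**Figure D4:**
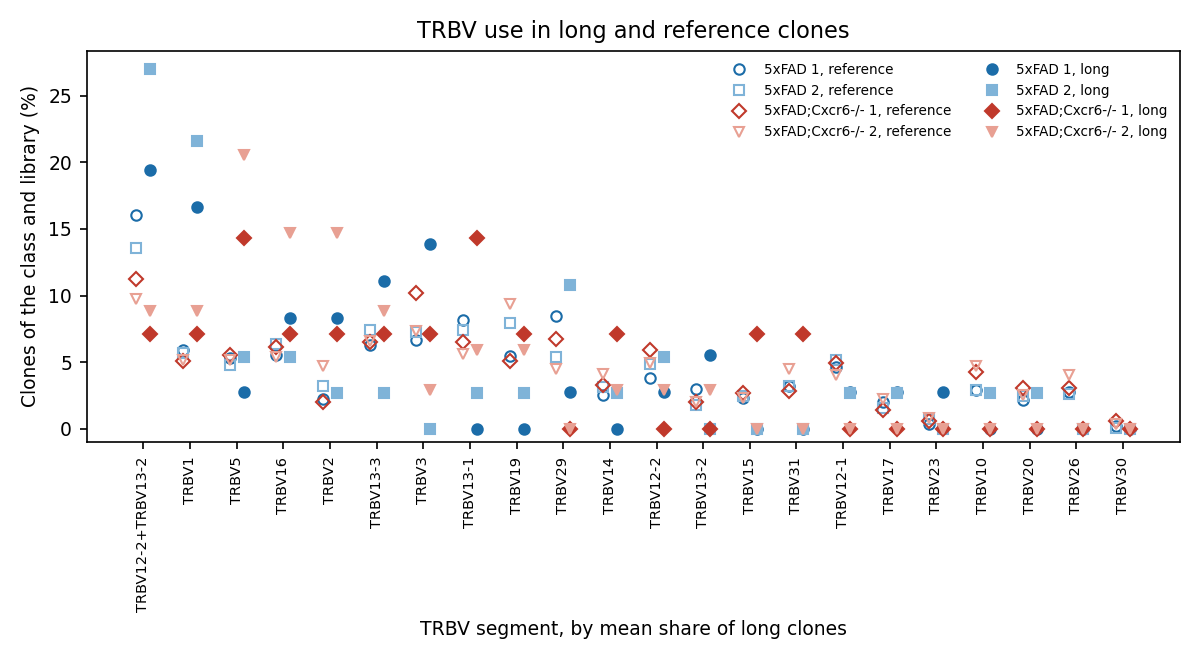
Share of clones (y axis, %) that carried each TRBV label, ordered by its mean share of long clones, with open symbols for reference and filled symbols for long clones of each library. The long shares scatter widely because 14 to 37 long clones stand behind each library, and TRBV1 is above the reference range in 4 of 4.

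Long loops held a larger mean share of glycine, the smallest and most flexible residue, in 4 of 4 libraries. Per 100 CDR3 residues, long clones averaged 15.4 and 14.7 glycines in 5xFAD, and 12.2 and 15.3 in 5xFAD;Cxcr6-/-. Reference clones averaged 10.8, 10.9, 10.2 and 10.00. The mean difference was 3.92 ± 1.44 (SD, n = 4), in the same direction in 4 of 4 libraries (exact sign-flip permutation p = 0.125, adjusted 0.292). Against reference clones of 15 to 16 residues it was 2.23. In counts, 60 of 121 long clones had 3 or more glycines (49.6%), against 17.04% of reference clones, and 2 long clones had none.

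Many long loops held a glycine motif that a D segment encodes. The motif GTG, read in 1 frame of either D segment, was in 29 of 121 long CDR3s (24.0%) and 6.45% of reference CDR3s. DWG, from TRBD2, was in 12.4% and 4.64%, and GLG, also from TRBD2, in 8.26% and 3.61%. These shares varied between libraries: GTG was in 7.14% of long and 6.54% of reference CDR3s of 5xFAD;Cxcr6-/- library 1 but in 38.2% and 5.03% in library 2. DWG ran from 5.56% against 5.48% in 5xFAD library 1 to 35.7% against 4.29% in 5xFAD;Cxcr6-/- library 1, and GLG was less frequent in long CDR3s of 5xFAD library 2 (2.70% against 3.93%). The TRBD1 motifs GQG and DRG were in 3.31% and 4.13% of long and 3.69% and 3.90% of reference CDR3s. Any of these 5 motifs was found in 51.2% of long and 22.0% of reference CDR3s, with the long share higher in 4 of 4 libraries. A longer loop also has more places for any motif, so these shares are a description.

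The mean net charge, summed over the CDR3 and not scaled by its length, was slightly more negative in long clones of each library. Counting lysine and arginine as positive and aspartate and glutamate as negative, the net charge of long CDR3s averaged -0.917 and -0.973 for 5xFAD, -0.786 and -0.912 for 5xFAD;Cxcr6-/-, each below its own reference mean. Reference means ran from -0.853 to -0.748. The mean difference was -0.104 ± 0.0657 charges (SD, n = 4; exact sign-flip permutation p = 0.125, adjusted 0.292). Of 121 long CDR3s, 79 were negative (65.3%), 35 neutral and 7 positive (5.79%). Of reference CDR3s, 63.8% were negative and 9.62% positive. The negative share was lower in long clones of 5xFAD library 1 (61.1% against 65.5%) and 5xFAD;Cxcr6-/- library 1 (57.1% against 64.2%). It was higher in library 2 of 5xFAD (70.3% against 63.0%) and of 5xFAD;Cxcr6-/- (67.6% against 62.7%). With the 3 residues at each end left out, glutamate made up 5.13% of long and 8.99% of reference residues, while aspartate made up 8.32% and 7.77%. Arginine made up 5.09% and 6.12% and lysine 0.369% and 0.545%. Charge per residue was not tested. Tryptophan, which the DWG frame of TRBD2 encodes, made up 2.75% and 1.57% and was higher in long clones in 4 of 4 libraries.

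**Figure D5:**
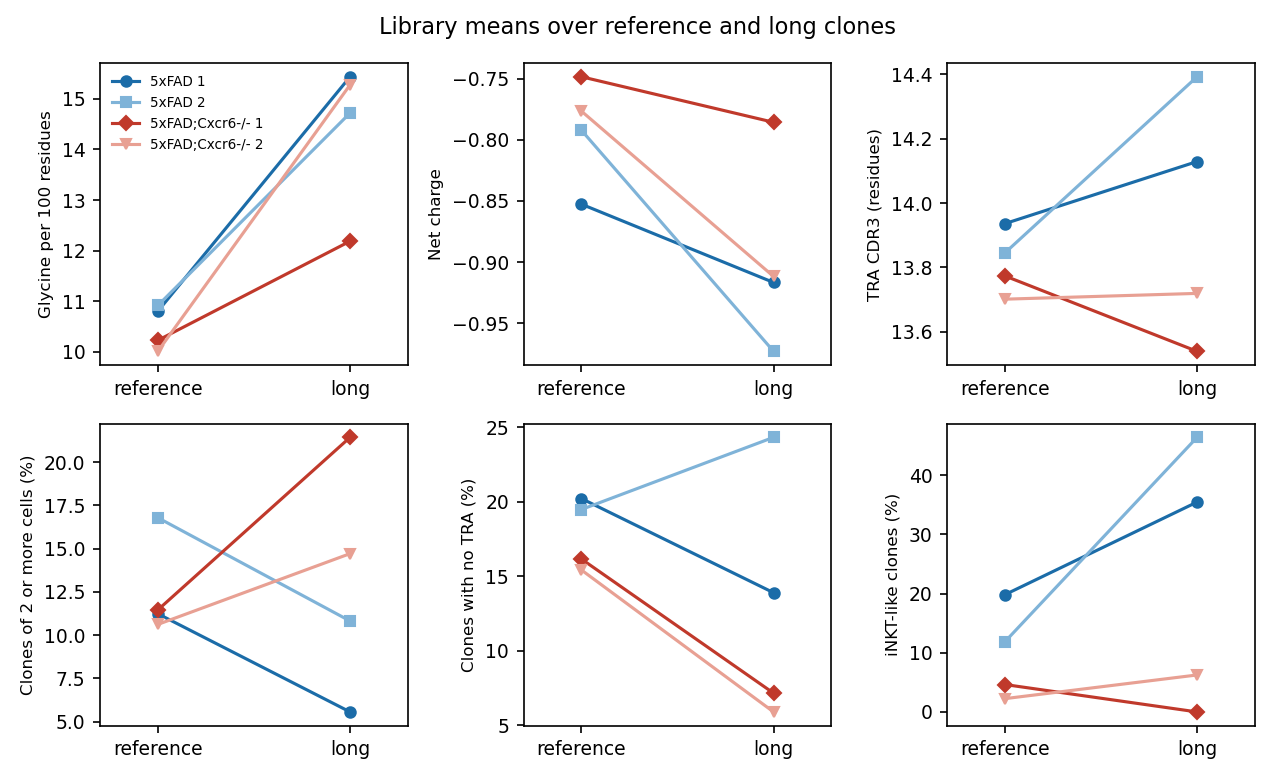
Library means of 6 measures (y axes, units on each) for reference and long clones, each line being 1 library. Glycine rises and net charge, summed over each CDR3, falls in 4 of 4 libraries. The share of clones with 2 or more cells falls in the 5xFAD and rises in the 5xFAD;Cxcr6-/- libraries.

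Mean loop length of the alpha partners differed between long and reference clones by less than the spread of that difference over libraries. The TRA CDR3 of long clones averaged 14.1 and 14.4 residues for 5xFAD, 13.5 and 13.7 for 5xFAD;Cxcr6-/-, against 13.7 to 13.9 in reference clones. The mean difference was 0.131 ± 0.329 residues (SD, n = 4; exact sign-flip permutation p = 0.625, adjusted 0.729). In clones that were not iNKT-like, the pooled means were 13.67 residues for long and 13.69 for reference clones. A TRA was found in 104 of the 121 long clones, 8 of them with 2 or more TRA chains. The share with no TRA was 12.8% of long and 17.8% of reference clones as library means, a difference of -5.01 ± 6.72 percentage points (SD, n = 4; exact sign-flip permutation p = 0.25, adjusted 0.438). The partners used 48 TRAV and 32 TRAJ segments.

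The most frequent partner was the invariant alpha chain of iNKT cells, lipid-reactive T cells that recognise CD1d and join TRAV11 to TRAJ18. TRAV11 lies at chr14:53519303-53519859 (TR_V_gene) and TRAJ18 at chr14:54200777-54200842 (TR_J_gene), both on the plus strand of GRCm38; the split between TRAV11 and its near-identical copy TRAV11D is uncertain. Of 104 long clones with a TRA, 26 were iNKT-like (25.0%), against 336 of 3101 reference clones (10.8%). By library, they were 11 of 31 and 13 of 28 in 5xFAD and 0 of 13 and 2 of 32 in 5xFAD;Cxcr6-/-. The 0 of 13 allows a share of up to 23.1%. No long clone was MAIT-like (TRAV1 with TRAJ33), against 7 reference clones.

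TRAV11 and TRAJ18 were higher among the alpha chains of long clones, by 1.28 (SE 0.37, edgeR adjusted p = 0.0210) and by 1.11 on the log2 scale (SE 0.35, edgeR adjusted p = 0.0389). Both calls were lost without 5xFAD library 1, without 5xFAD library 2 or without 5xFAD;Cxcr6-/- library 2 (adjusted p of 0.132 to 0.703), and against reference clones of 15 to 16 residues (0.407 for both). They were also lost over cells (0.339 and 0.617), with DESeq2 (0.769 and 0.868) and with TMM scaling, where the log2 values were 0.47 and 0.28 (0.450 and 0.686). As library means, the iNKT-like share was 22.04% of long and 9.64% of reference clones, a difference of 12.4 ± 16.96 percentage points that was positive in 3 of 4 libraries (exact sign-flip permutation p = 0.375, adjusted 0.525).

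The long iNKT-like clones carried 1 alpha CDR3 almost throughout. In 24 of 26 it was the same sequence of 15 residues, and the other two differed from it in 1 residue. Their beta chains used V segments known for iNKT cells. TRBV13-2 (with the joined label) made up 12 of 26, TRBV1 5 and TRBV29 5. Among the 336 iNKT-like reference clones they made up 180, 31 and 44. All 5 long clones with TRBV29 were iNKT-like, against 44 of 237 reference clones with it. Of the 18 long TRBV1 clones, 5 were iNKT-like. Longest A and longest B were both iNKT-like, as was the 3-cell clone of 5xFAD library 2 shown above (TRBV13-1 with TRBJ2-2). None of the other clones of 19 residues was iNKT-like, so the share at this length was 40% of clones with a TRA. Glycine was not limited to these clones: among long clones with another TRA it was 14.4 per 100 residues, against 10.3 in such reference clones.

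Between the genotypes, the long clones differed in the iNKT-like chains. Of 16 segments with enough long clones to test, 2 passed (12.5%), both lower in 5xFAD;Cxcr6-/-. TRAV11 was carried by 12 of 35 and 13 of 29 alpha chains of long clones in 5xFAD and by 0 of 15 and 2 of 33 in 5xFAD;Cxcr6-/- (log2 fold change -3.10, edgeR SE 0.72, adjusted p = 0.00244). TRAJ18 was carried by 12 and 13 against 0 and 3 chains (log2 fold change -2.56, edgeR SE 0.66, adjusted p = 0.00379). Without 5xFAD;Cxcr6-/- library 1 the adjusted p was 0.137 for TRAV11 and 0.145 for TRAJ18, and without library 2 it was 0.0517 for both.

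The reference clones showed the same direction, with TRAV11 in 14.8% ± 4.89 of 5xFAD and 3.46% ± 1.63 of 5xFAD;Cxcr6-/- alpha chains (SD over 2 libraries each). The test of the difference between the 2 classes gave a log2 value of -0.93 (SE 0.88, edgeR adjusted p = 1) for TRAV11. Over all 155 segments, edgeR called 0 long-reference differences that varied with genotype (0% of those tested), with 7 at an unadjusted p under 0.05, and DESeq2 called 0, with 1 unadjusted.

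Other segments with small p in the genotype tests are given by their counts. TRBV5 was in 1 of 36 and 2 of 37 long clones of 5xFAD and in 2 of 14 and 7 of 34 of 5xFAD;Cxcr6-/- (log2 fold change 2.08, edgeR SE 0.66, adjusted p = 0.0690). TRBJ2-4 was in 5 and 1 against 3 and 9 long clones (1.56, SE 0.62, edgeR adjusted p = 0.0834), TRBV2 in 3 and 1 against 1 and 5, and TRBV12-2+TRBV13-2 in 7 and 10 against 1 and 3. TRBJ1-5 was in 3 and 2 against 0 and 0, TRBJ1-2 in 1 and 3 against 0 and 0, TRBV29 in 1 and 4 against 0 and 0, and TRAJ26 on 0 and 0 against 3 and 2 chains. None of these passed.

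By permutation test, no measure of long clones, the iNKT-like share included, could be called different between the genotypes with 2 libraries each. In several the libraries did not overlap: the share with no TRA was 19.1% ± 7.38 in 5xFAD against 6.51% ± 0.891 in 5xFAD;Cxcr6-/-, that of TRBJ2 75.4% ± 7.27 against 87.0% ± 1.78, and that of clones with 2 or more cells 8.18% ± 3.72 against 18.1% ± 4.75 (SD, n = 2 each; exact permutation p = 0.333, adjusted 0.451, for each). Glycine averaged 15.1 ± 0.507 per 100 residues in 5xFAD and 13.7 ± 2.19 in 5xFAD;Cxcr6-/- (exact permutation p = 0.667), net charge -0.945 ± 0.0398 and -0.849 ± 0.0891 (p = 0.333), and the TRA CDR3 14.3 ± 0.187 and 13.6 ± 0.127 residues (p = 0.333; SD, n = 2 each; exact two-sided permutation tests). With adjustment over 23 genotype comparisons these became 0.730, 0.451 and 0.451. Without iNKT-like clones the difference in TRA length was -0.172 residues in place of -0.632. Reference clones also did not overlap between the genotypes in the share with no TRA (19.8% and 15.8%) and TRA length (13.9 and 13.7 residues). The same held for their net charge (-0.822 in 5xFAD and -0.763 in 5xFAD;Cxcr6-/-) and iNKT-like share (15.8% and 3.44%). Their glycine did not overlap either (10.9 and 10.1 per 100 residues), while that of long clones did.

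Most long clones were seen in 1 cell. Of 121, 107 had 1 cell, 8 had 2, 4 had 3, 1 had 4 and 1 had 10. Clones of 2 or more cells numbered 2 of 36 (5.56%) and 4 of 37 (10.8%) for 5xFAD, and 3 of 14 (21.4%) and 5 of 34 (14.7%) for 5xFAD;Cxcr6-/-. Reference clones had 11.2%, 16.8%, 11.5% and 10.6%. The difference averaged 0.605 ± 7.80 percentage points (SD, n = 4; exact sign-flip permutation p = 1), negative in both 5xFAD and positive in both 5xFAD;Cxcr6-/- libraries. The largest long clone had 10 cells where the largest reference clones had 254, 76, 14 and 31 cells by library, among many more clones.

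The expanded long clones did not share a receptor. The 10-cell TRBV1 clone paired with TRAV6N-7 and TRAJ15, and the 4-cell clone of 5xFAD;Cxcr6-/- library 2 with TRAV15-1-DV6-1 and TRAJ52. In 5xFAD library 2 another 3-cell clone joined TRBV13-3 to TRBJ1-4. In 5xFAD;Cxcr6-/- library 1 a pair of 2-cell clones used TRBV14 with TRBJ2-1 and TRBV13-1 with TRBJ2-4, both with a TRBD2 label. In 5xFAD;Cxcr6-/- library 2 a 3-cell clone joined TRBV5 to TRBJ1-6. Only 1 of the 26 iNKT-like long clones had 2 or more cells, against 12 of 78 with another TRA. Reference clones showed the same direction, with 17 of 336 iNKT-like clones and 452 of 2765 with another TRA.

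No long CDR3 was found in more than 1 library. The 121 clones held 119 distinct amino acid sequences, and 0 of 119 occurred in 2 or more libraries, against 56 of 3603 reference sequences (1.55%). The 0 of 119 allows a share of up to 2.52%, so a difference was not detectable at this depth. Within 5xFAD library 2, 2 long TRB chains with identical nucleotides, both TRBV1, were each split over 2 clonotypes, at least 1 of which lacked a TRA.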

How the data were processed

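Libraries were made from sorted brain cells with the Chromium Single Cell Immune Profiling v2 kit, per the labels' protocols. Cell Ranger 6.0 and mm10 are named per the submitters' processing notes. Each contig of the deposited tables has its segment names, CDR3, clonotype and, per the file headers, unnormalized counts of reads and UMIs; all 12792 contigs were productive. Gene expression was not analysed here. Cells with 1 TRB were grouped by clonotype within a library, and the TRA of a clone was the most common non-empty set of its cells. iNKT-like meant TRAV11 or TRAV11D with TRAJ18.

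CDR3 nucleotides were split by the longest exact match to V and J and the longest D match of 5 or more bases in GENCODE vM21 transcripts. On 2000 simulated rearrangements the bases outside V, D and J were off by -0.726 on average, and 93.8% of D stretches were within 1 base. Each simulated D stretch was longer than the 5-base limit, whereas 75.6% of reference clones had a D match. The error for shorter D remnants was therefore not measured. Segments with 10 or more clones were tested with edgeR 4.0.16 (quasi-likelihood, offset the log of TRB clones or TRA chains, Benjamini-Hochberg over all tested); SE is the absolute fold change divided by the square root of F. In simulated data with 4-fold changes and a dispersion of 0.01, the test recovered 35% (long against reference, 155 segments), 6.5% (difference by genotype, 155 segments) and 58.75% (genotype, 16 segments). Changes were put into 10 of the more frequent segments in each test of 155 segments, and into 8 in the genotype test. Recovery of rarer segments was not measured. Library values were compared by exact permutation tests in scipy 1.17.1. Alternatives changed the unit, length limits, cells, scaling, filter, tool (DESeq2 1.42.0) and libraries. Thinning and other D limits were added after seeing the data.

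Named segments were those called, the 5 TRBJ and 6 TRBV most used by long clones, the 3 of each direction with the smallest p, and both D segments. Named clones were the 2 largest per library with 2 or more cells and 3 of the longest, with ties going to the alphabetically first CDR3. The partner segments of named clones and of iNKT-like clones were named after their values were seen. Members and lists were chosen with earlier results of these data known.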

Additional observations from a re-analysis of the deposited data

Results flagged for a closer look

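The difference in clone expansion between long and reference clones ran in opposite directions in the genotypes. The share of clones with 2 or more cells differed by -5.68 and -5.97 percentage points, long minus reference, in 5xFAD libraries 1 and 2. The same difference was 9.98 and 4.09 points for 5xFAD;Cxcr6-/-. The exact permutation test of this difference between genotypes gave p = 0.333, the smallest possible with 2 libraries against 2, so the difference cannot be called. It rests on 2, 4, 3 and 5 expanded long clones. After each library was thinned to 684 cells, the number of the smallest, the shares of long and reference clones were 7.68% and 10.1%, 5.81% and 13.3%, 21.4% and 11.5%, and 11.06% and 8.56%, in the same directions. Among long clones alone, the expanded share was 9.88 points higher in 5xFAD;Cxcr6-/- (exact permutation p = 0.333). With clones grouped by TRB V, J and CDR3 nucleotides, it was 6.72 points higher (exact permutation p = 0.667).

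Cells with 2 TRB chains, which the comparisons left out, also held long chains. A CDR3 of 17 or more residues was found in 5 of 82 such barcodes in 5xFAD library 1 and 7 of 88 in library 2. The 5xFAD;Cxcr6-/- libraries had 0 of 61 and 3 of 55. Over all libraries these were 15 of 286, where 2.39% of cells with 1 TRB were long. A barcode with 2 chains has more chances to hold a long one, so these shares are not directly comparable. Such barcodes can be doublets, which was not tested.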

How the results depend on the processing

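Of 128 alternative values of the measures compared with permutation tests, 114 kept their direction. Glycine, net charge, the TRBJ2 share and the iNKT-like share kept the direction of their mean long-reference difference in every alternative. For net charge it shrank to -0.0193 over cells (exact sign-flip permutation p = 0.875) and -0.0696 without iNKT-like clones (p = 0.5). The TRBJ2 difference over cells was 10.5 points (exact sign-flip permutation p = 0.375). Counted over cells, the expanded difference was -9.62 points and the genotype difference in charge -0.142. With 18 or more residues, the no-TRA difference was 4.78 points and the genotype differences 1.67 glycines per 100 residues and 0.292 TRA residues. Without iNKT-like clones, the TRA length difference was -0.0184 residues and the genotype difference in charge -0.0616. At 3 or more cells, the expanded difference was -1.69 points and its genotype difference -2.50. Leaving out 1 library gave -0.00784 to 0.253 residues for TRA length, -2.52 to 2.80 points for expansion, -2.90 to 0.198 for glycine by genotype and -0.203 to 0.657 points for the long share by genotype; the causes were not tested.

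Segments called, long against reference, numbered 3 over cells, 0 at 18 or more residues, 1 against 15 to 16 residues, 4 without iNKT-like clones, 2 with DESeq2 (TRBD2 and TRBJ2-2) and 1 to 4 without 1 library; fewer clones enter all of these but the cell and DESeq2 fits. TRBD2 passed in each of these fits except at 18 or more residues (adjusted p = 0.139). There TRBJ2-2, with 0 clones, had a fitted log2 value of -7.83, which is no bound. TMM moved the median log2 value of the 155 segments from -0.32 to -1.19. By genotype, 0 segments passed at 18 or more residues (1 tested), 0 without iNKT-like clones and 0 to 3 without 1 library. A replicate block on the library numbers, which name libraries and do not pair them, left 2 calls. Bases outside V, D and J differed by 3.05 with D matches of 3 or more bases and 1.32 with 7 or more. Both the number of libraries, which allows no permutation p below 0.333 by genotype, and the 14 long clones of 5xFAD;Cxcr6-/- library 1 limit the contrasts.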
